A study of Homo sapiens with 8 samples.

Results

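The effect of freezing was read from 1 pair of RNA-seq libraries in which the solution and the holding time were the same: mesenchymal stromal cells held for 1 h in DMSO and then frozen and thawed (frozen 1 h DMSO), and the same kind of cells held for 1 h in DMSO without freezing (fresh 1 h DMSO). The stromal cells had been made from H9, a human embryonic stem cell line, and were used at passages 8 to 12 after growth on gelatin in alpha-MEM with serum. Of 8 libraries in the study, these were the only frozen and fresh libraries that matched in both respects. All genes with a count of 100 or more in at least one of the 2 libraries were described, which gave 11936 of 23354 genes in the table. Counts summed to 47299694 in frozen 1 h DMSO and to 43810894 in fresh 1 h DMSO.

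Each condition was a single library, so no difference here has a replicate check and none was tested. Freezing, thawing and any other way in which the 2 vials differed cannot be told apart. Cells in DMSO had been cooled at 1 °C per minute and thawed in a bath at 37 °C. A second pair of libraries, which shares no library with the first, was set beside it: cells frozen in DMSO with no holding time (frozen 0 h DMSO) and fresh cells at 0 h. The title of fresh 0 h names no DMSO, so freezing and exposure to DMSO cannot be told apart in that 0 h pair. The other 4 libraries were fresh cells after 1 h in medium and cells frozen in 3 osmolyte solutions labelled SGC, SGI and SMC, the first 2 after 1 h and SMC after 2 h, all cooled at 3 °C per minute. Passage is given for the study only, and whether each library had a culture of its own is not stated in the labels.

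DMSO enters cells and lowers the freezing point of water, which limits the ice that forms inside them. Mesenchymal stromal cells are fibroblast-like cells that make collagen-rich matrix, secrete growth factors and can form bone, cartilage and fat. Most of their messenger RNAs persist for hours, whereas those of immediate early genes are made and lost within minutes.

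RNA of stromal surface markers was present in both libraries, while protein was not measured. In the authors' RPKM, a level per kilobase of transcript, THY1 (CD90) stood at 70.9 in frozen and 72.9 in fresh 1 h DMSO, NT5E (CD73) at 44.6 and 43.0, and ENG (CD105) at 62.8 and 74.1. VIM, the intermediate filament of mesenchymal cells, stood at 735 and 817. The leukocyte gene PTPRC (CD45) stood at 0.015 and 0, CD14 at 0.017 and 0.053, and CD34 at 0.38 and 0.42. The pluripotency genes POU5F1 and NANOG stood at 0.82 and 0.32 in frozen and at 0.92 and 0.24 in fresh 1 h DMSO. CD44 stood at 49.0 in frozen and 61.7 in fresh 1 h DMSO. Of 19 stromal markers, 18 passed the count limit, and 1, the collagen-binding integrin subunit ITGA11, was at least 1.5-fold higher in the frozen library. The log2 ratio of frozen to fresh was above 0 for 6 of the 18 and below 0 for 12, with a median of -0.07. Over all genes 48.0% were below 0. The lowest of the 18 was ANPEP (CD13), at -0.41. The summed level of the 19 was 6986 CPM (counts scaled to library size with TMM factors) in frozen and 7152 in fresh 1 h DMSO.

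Most genes lay close together in the 2 libraries. The median log2 ratio of frozen to fresh 1 h DMSO was 0.01 over the 11936 genes, and 5% to 95% of them lay between -0.29 and 0.41. A gene was called apart at 1.5-fold, a log2 ratio of 0.58, computed on CPM with a prior count of 2, which shrinks the ratios of weakly expressed genes. By this limit 239 genes (2.0%) were higher and 105 (0.88%) were lower in the frozen library, 344 in all (2.88%). At 2-fold, 50 genes (0.419%) were higher and 16 (0.134%) lower. When libraries were scaled by their count sums alone, the split was 182 higher and 147 lower, with the median of all genes at -0.05.

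The number of genes apart was of the size seen between fresh libraries. Fresh 1 h DMSO and fresh 0 h were apart at 212 genes, fresh 1 h medium and fresh 0 h at 322, and the 2 fresh 1 h libraries at 364. The 2 DMSO-frozen libraries were apart at 146 genes, the fewest of all 28 pairs. Pairs of an osmolyte-frozen library with a fresh or DMSO-frozen one were apart at 1137 to 2408 genes. These counts share libraries and are given side by side only.

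The called differences were set beside counting error. The 95% interval of the count ratio (exact binomial), which covers counting error only, lay off 0 for 234 of the 239 higher genes and 101 of the 105 lower ones. The calls rest on the same 2 counts as the intervals, which favours intervals off 0. An interval off 0 can still be wide, as for the lysozyme gene LYZ at 0.63 (0.04 to 1.26). Over all genes it lay above 0 for 2248 (18.8%) and below 0 for 1906 (16.0%), so small differences beyond counting error were common. At the count limit itself, 23 genes with a higher count of 100 had log2 ratios from -1.08 to 1.23, with a median of 0.07 and 7 of them apart. The 30 genes just outside, at 98, ranged from -1.60 to 0.79, with a median of 0.06 and 5 apart.

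The 0 h pair gave a further reading of the same genes from other libraries. In that pair 313 genes (2.62%) were at least 1.5-fold apart, 124 (1.04%) higher and 189 (1.58%) lower in the frozen library. Of the 239 genes higher in the 1 h pair, 58 (24.3%) were also at least 1.5-fold higher in the 0 h pair, which is 46.8% of the 124. Of the 105 lower genes, 40 (38.1%) were also at least 1.5-fold lower, which is 21.2% of the 189. In sign alone, 180 of the 239 (75.3%) were higher in the 0 h pair against 52.6% of all genes, and 82 of the 105 (78.1%) were lower against 47.4%. In the 0 h pair the higher genes had a median log2 ratio of 0.34 and the lower genes one of -0.43. Across all genes Pearson's r between the pairs' log2 ratios was 0.30 and Spearman's rho 0.15, a description over 11936 genes that are not independent.

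**Figure D1:**
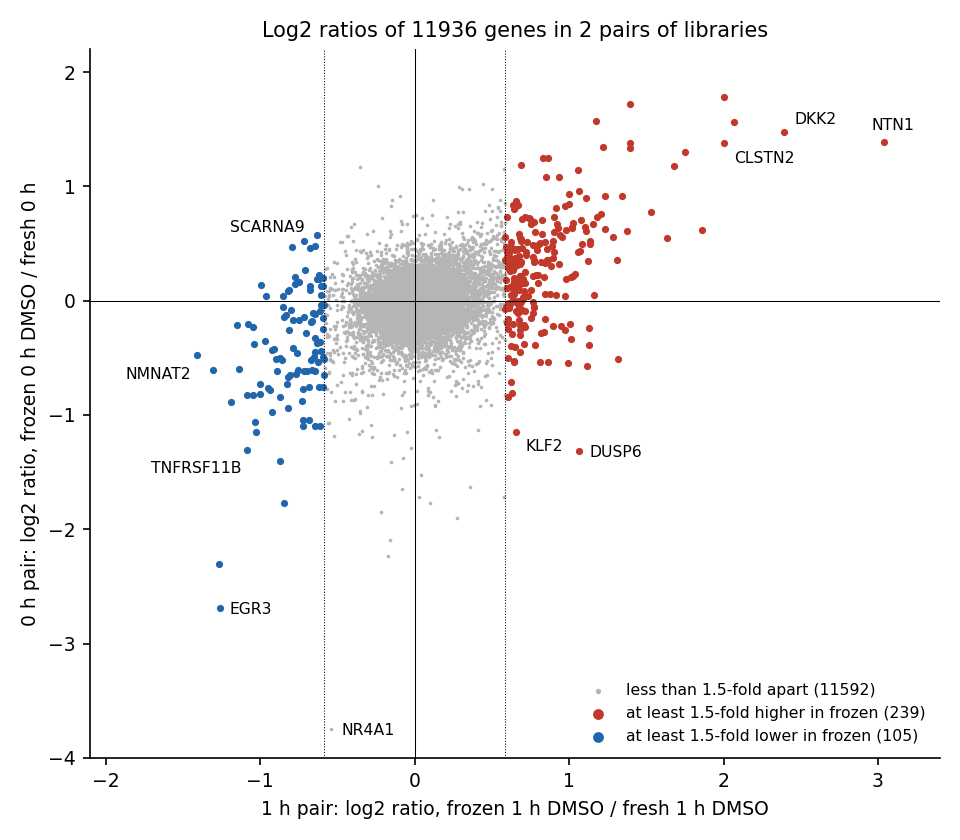
Each point is 1 of 11936 genes, with its log2 ratio in the 1 h pair on the horizontal axis and in the 0 h pair on the vertical axis, and dotted lines at 1.5-fold. Most of the 239 genes higher at 1 h (red) lie above 0 on the vertical axis and most of the 105 lower ones (blue) below it, with DUSP6 and KLF2 high at 1 h and low at 0 h.

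The called genes were also placed in all 8 libraries. Both DMSO-frozen libraries lay above all 3 fresh ones for 170 of the 239 higher genes and below all 3 for 72 of the 105 lower genes, while over all genes this held for 2232 (18.7%) and 1774 (14.9%). As the pair itself is part of that ordering, the calls favour it. Relative to each gene's mean log2 level over the 8 libraries, the median of the 239 genes was -0.65 in fresh 1 h DMSO, while the medium control had -0.53 and fresh 0 h had -0.35. It was -0.06 in frozen 0 h DMSO, 0.16 in frozen 1 h DMSO and between 0.42 and 0.53 in the osmolyte-frozen libraries. The frozen 1 h DMSO library thus lay between the fresh and the osmolyte-frozen ones, and was the highest of the 8 for 29 of the 239 genes, against 990 of all genes (8.29%). Fresh 1 h DMSO was the lowest of the 8 for 132 of them (55.2%), while this held for 1344 of all genes (11.3%). The genes were chosen by their difference between these 2 libraries, which favours such ranks and medians, so they describe the genes only. The 105 lower genes gave the mirror image, with frozen 1 h DMSO the lowest of the 8 for 17 of them, against 685 of all genes (5.74%), and medians of 0.59 in fresh 1 h DMSO, -0.17 in frozen 1 h DMSO and -0.45 to -0.38 in the osmolyte-frozen libraries.

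Among genes with at least 5 CPM in the higher library, secreted signalling proteins and adhesion proteins known from nerve cells led those that were higher after freezing. NTN1, which encodes the guidance protein netrin 1 (hg19 chromosome 17, 8924859 to 9147317), stood at 0.777 CPM in fresh 1 h DMSO and 6.71 in frozen 1 h DMSO. It was at 1.85 in fresh 0 h, 1.12 with medium alone and 4.90 in frozen 0 h DMSO, so that no fresh library reached a frozen one. Its log2 ratio was 3.04 (counting interval 2.38 to 3.93) in the 1 h pair and 1.39 in the 0 h pair. It rests on counts of 304 and 34.

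DKK2, a secreted modulator of WNT signalling (chromosome 4, 107842959 to 107957453), stood at 3.84 CPM in fresh and 20.4 in frozen 1 h DMSO, and at 5.94 and 16.6 in the 0 h pair. The log2 ratio was 2.39 (2.07 to 2.76) at 1 h and 1.48 at 0 h. CLSTN2, a calsyntenin of synaptic membranes (chromosome 3, 139654027 to 140286919), was the highest-ranked gene among those above 100 CPM. It stood at 26.3 CPM in fresh and 105 in frozen 1 h DMSO, a log2 ratio of 2.00 (1.87 to 2.14), and at 35.3 and 92.1 in the 0 h pair. In fresh 1 h medium it was at 23.8, so that all 3 fresh libraries lay below both DMSO-frozen ones. The 250 bases before its annotated start, from RefSeq (GRCh38.p14 chr3:139934935-139935184, plus strand), are shown because it is the abundant gene with the largest ratio, with the only CRE (TGACGTCA, the cyclic AMP response element) in capitals:
CLSTN2: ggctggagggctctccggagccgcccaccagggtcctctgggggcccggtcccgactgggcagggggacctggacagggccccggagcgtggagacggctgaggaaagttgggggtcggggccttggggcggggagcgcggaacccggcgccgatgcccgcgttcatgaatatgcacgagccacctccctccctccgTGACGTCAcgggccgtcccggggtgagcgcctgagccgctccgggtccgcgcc
A CRE on either strand was found in 482 of 27305 annotated windows of the same length (1.77%). A match of letters describes the window only.

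GAS1, BMP2, B3GALT2 and CADM1 followed in order of ratio. GAS1, a membrane protein that binds hedgehog ligands, stood at 1.78 CPM in fresh and 6.58 in frozen 1 h DMSO (log2 ratio 1.86, 1.37 to 2.43). BMP2, a bone morphogenetic protein, stood at 3.38 and 9.85 CPM (1.53, 1.16 to 1.94). The glycosyltransferase gene B3GALT2 stood at 1.92 and 5.12 CPM (1.40). The adhesion protein CADM1 stood at 35.0 and 92.0 CPM (1.39, 1.27 to 1.52), and was at 33.6 and 85.0 in the 0 h pair. These 4 genes lay above all fresh libraries in both DMSO-frozen ones, as did 18.7% of all genes. Of the 15 genes with the largest ratios, the others lay between 1.18 and 1.39: LRRN1, the collagen COL14A1, PCSK1N, the adaptor SHC2, the peptide hormone APLN, the noncoding RNA MIAT, the iron exporter SLC40A1 and the neurotrophin receptor NTRK3. All of the 15 but PCSK1N were also higher in the frozen library of the 0 h pair, as were 75.3% of the 239 higher genes. Over all genes the share was 52.6%. PCSK1N, an inhibitor of prohormone convertase, was at 2.51 and 6.32 CPM at 1 h and at 3.87 and 2.71 at 0 h.

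Abundant genes had smaller ratios. Above 100 CPM, the genes after CLSTN2 were LRIG1, MAMDC2, IGFBP5 and TGM2. LRIG1, a membrane protein that restrains growth factor receptors, stood at 57.6 CPM in fresh and 122 in frozen 1 h DMSO (log2 ratio 1.08, 0.98 to 1.17). IGFBP5, a binding protein of insulin-like growth factors, stood at 956 and 1786 CPM (0.90, 0.88 to 0.93), and at 950 and 1579 in the 0 h pair. The highest levels of IGFBP5 were in the osmolyte-frozen libraries, at 3098 to 3390 CPM. TGM2, the enzyme that cross-links matrix proteins, stood at 468 and 847 CPM (0.86), and at 607 and 779 in the 0 h pair.

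**Figure D2:**
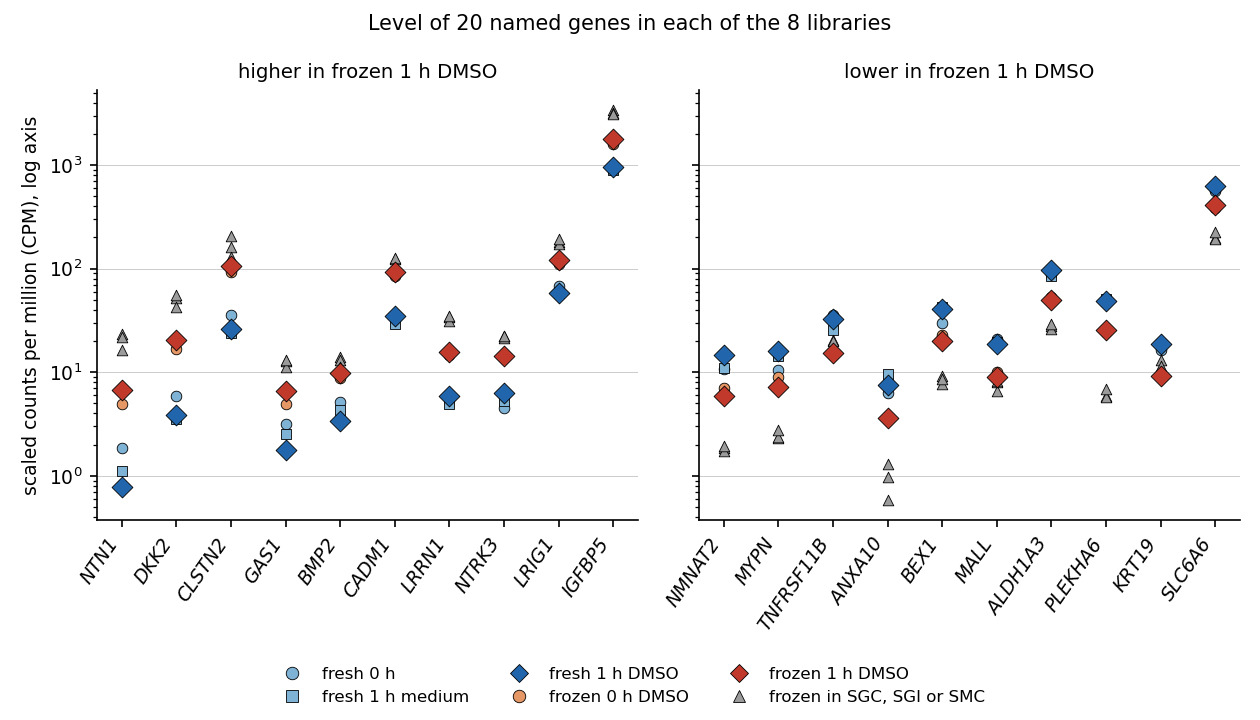
Points give the scaled CPM (log axis) of 20 named genes in each of the 8 libraries, with diamonds for fresh (blue) and frozen (red) 1 h DMSO and triangles for the osmolyte-frozen libraries. For most genes the red diamond lies between the fresh libraries and the triangles, as for NTN1 at 6.71 CPM between 0.777 to 1.85 in fresh and 16.4 to 23.3 in osmolyte-frozen cells.

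The median log2 ratio was -0.75 over the 105 lower genes and 0.72 over the 239 higher ones, while the extremes at 5 CPM or more were smaller on the lower side. NMNAT2, an enzyme of NAD synthesis best known from axons (chromosome 1, 183217372 to 183387634), stood at 14.6 CPM in fresh and 5.87 in frozen 1 h DMSO. Its log2 ratio was -1.30 (-1.61 to -1.01) at 1 h and -0.61 at 0 h. MYPN, a protein of the muscle sarcomere, stood at 16.1 and 7.24 CPM (-1.15), and at 10.4 and 9.01 in the 0 h pair. TNFRSF11B, the secreted decoy receptor osteoprotegerin, stood at 32.8 and 15.4 CPM (-1.09, -1.28 to -0.90), and at 35.99 and 14.5 in the 0 h pair. In TNFRSF11B, all 3 fresh libraries (25.7 to 35.99 CPM) lay above both DMSO-frozen ones.

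MALL, a protein of membrane rafts, stood at 18.5 CPM in fresh and 9.01 in frozen 1 h DMSO (-1.03, -1.29 to -0.79), and at 21.0 and 10.0 in the 0 h pair. ANXA10, an annexin, stood at 7.54 and 3.62 CPM (-1.05). The keratin KRT19 stood at 18.6 and 9.23 CPM, and the retinoic acid enzyme ALDH1A3 at 96.4 and 49.8 (-0.95, -1.06 to -0.85). PLEKHA6 stood at 48.9 and 25.8 CPM (-0.93) and at 47.9 and 24.4 in the 0 h pair, and at only 5.80 to 6.85 in the osmolyte-frozen libraries. EGR3, LY6K, BEX1, CRIP1, TNS4, EPGN and SAMD11 made up the 15, with log2 ratios from -1.26 to -0.87. All of the 15 were also lower in the frozen library of the 0 h pair, as were 78.1% of the 105 lower genes. Over all genes the share was 47.4%. Among the lowest ratios above 100 CPM were those of the taurine transporter SLC6A6 (627 and 407 CPM, -0.62), SPOCD1, FGG and the sodium channel SCN3A, the last at -0.57.

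Lists of genes for cell programmes, 41 in all, were described by counts and medians, with 2.88% of all genes apart as the background. For counts of signs, 52.0% of all genes lay above 0 and 48.0% below at 1 h, and 52.6% and 47.4% at 0 h. Their medians lay between -0.28 for 3 metallothioneins and 0.42 for BMP genes, although the BMP median was 0.19 from a count limit of 200, below the 0.35 of the collagens there. BMP proteins are secreted ligands of the TGF-beta family, bound outside the cell by antagonists such as noggin, and ID genes are their classical targets. Of 20 BMP genes, 7 were at least 1.5-fold higher and 2 lower in frozen 1 h DMSO. The ligands BMP2, BMP4 and GDF6 and the antagonist NOG were among the 7. NOG stood at 1.01 and 3.49 CPM (1.75, 1.10 to 2.55) and BMP4 at 2.01 and 3.89 (0.94). Both are weakly expressed, while GDF6 stood at 107 and 189.9 (0.82). The receptor BMPR1B was also higher. So was GDF15, which is counted among the p53 targets too, at 0.84 in the 1 h pair but -0.16 in the 0 h pair.

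The ID genes, which encode inhibitors of helix-loop-helix factors, ran the other way. ID1 stood at 67.6 CPM in fresh and 40.9 in frozen 1 h DMSO (-0.72, -0.84 to -0.60), and at 67.9 and 31.7 in the 0 h pair. ID2 stood at 17.6 and 10.9 CPM (-0.69), ID3 at 65.4 and 51.5 (-0.34) and ID4 at 23.7 and 19.2 (-0.30). Each of the 4 was lower in both DMSO-frozen libraries than in all 3 fresh ones, as were 14.9% of all genes. Their log2 ratios in the 0 h pair were -1.10, -0.76, -0.59 and -0.83. The list thus has members on both sides, with those 7 genes higher and ID1 and ID2 lower.

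Genes of WNT signalling, which acts through frizzled receptors and beta-catenin, had a median log2 ratio of 0.30 at 1 h and 0.18 at 0 h. Of 21 members, 3 were at least 1.5-fold higher and 1 lower, and 19 were above 0, against 52.0% of all genes. Besides DKK2, the receptor FZD1 stood at 39.8 CPM in fresh and 81.6 in frozen 1 h DMSO (1.04, 0.92 to 1.15), but at 52.6 and 62.0 in the 0 h pair. The negative regulator AXIN2 stood at 5.58 and 8.75 CPM (0.65). The transcription factor TCF7 was the only lower member, at 11.3 and 6.89 CPM (-0.71). Both DMSO-frozen libraries lay above all 3 fresh ones in 14 of the 21 genes, against 18.7% of all genes.

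Adhesion genes known from nerve cells had 8 of 26 members at least 1.5-fold higher and none lower, with a median of 0.24 in both pairs (0.11 at 1 h with no count limit). CLSTN2, CADM1, LRRN1 and NTRK3 led the list. NTRK3 stood at 6.31 CPM in fresh and 14.3 in frozen 1 h DMSO (1.18, 0.89 to 1.48), and at 4.55 and 13.6 in the 0 h pair. LRRN1 stood at 5.90 and 15.5 CPM (1.39), and at 5.54 and 14.5. In 16 of the 26 genes both DMSO-frozen libraries lay above all 3 fresh ones, against 18.7% of all genes. Of 13 defining markers of nerve and glial cells, 4 passed the count limit, 3 of them above 0 and none 1.5-fold apart, with a median of 0.40. A further 3 were at 0 in both libraries, and the 13 summed to 170 CPM in frozen and 162 in fresh 1 h DMSO. Their part in the list's values was not tested. In the axon guidance list, 2 of 23 members, NTN1 and NTN4, were at least 1.5-fold higher, with a median of 0.18.

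Collagens were higher in the frozen library of the 1 h pair, with a median log2 ratio of 0.35 over 24 genes. Above 0 were 22 of them, against 52.0% of all genes. At least 1.5-fold higher were 7, and none was lower. COL11A1, of the thin fibrils of cartilage, stood at 0.868 CPM in fresh and 2.78 in frozen 1 h DMSO (1.63, 0.92 to 2.50). COL14A1, which binds fibrils, stood at 2.70 and 7.07 (1.38), COL5A3 at 3.56 and 6.67 (0.90) and COL8A2 at 14.5 and 26.9 (0.89). The main fibrillar collagens followed with smaller ratios: COL3A1 stood at 4827 and 7561 CPM (0.65) and COL1A1 at 29062 and 37123 (0.35).

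In the 0 h pair the median of the collagens was 0.02, with 1 gene at least 1.5-fold higher. COL1A1 was at 31897 CPM in fresh 0 h and 29937 in frozen 0 h DMSO, and COL3A1 at 5788 and 6592. Fresh 1 h DMSO was the lowest of the 5 fresh and DMSO-frozen libraries for 8 of the 24 genes, where 15.5% of all genes had it lowest. The difference between the pairs was not tested. Collagen transcripts are rich in G and C, with a median GC content of 57.2% against 48.0% for all genes. After each gene was centred on the genes of like GC content, the medians were 0.32 at 1 h and 0.13 at 0 h.

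Other matrix genes were more mixed in sign than the collagens. Of 36 glycoproteins and proteoglycans, 7 were at least 1.5-fold higher and none lower, with medians of 0.24 at 1 h and -0.00 at 0 h. At 1 h 24 of the 36 lay above 0 and 12 below, against 52.0% and 48.0% of all genes. The counting interval lay above 0 for 24 and below 0 for 7, against 18.8% and 16.0% of all genes. ELN, which encodes elastin, stood at 0.914 CPM in fresh and 3.98 in frozen 1 h DMSO (2.07, 1.41 to 2.90), and at 1.04 and 3.15 in the 0 h pair. ASPN, a small proteoglycan, stood at 1.19 and 4.90 CPM (2.00), FBLN5, which guides elastic fibre assembly, at 32.4 and 65.7 (1.02) and the cross-linking enzyme LOXL4 at 29.1 and 57.3 (0.98). All 4 lay above every fresh library in both DMSO-frozen ones, as did 18.7% of all genes. Of 25 matrix proteases and inhibitors, 3 were higher, among them the gelatinase MMP2 at 1770 and 2844 CPM (0.68).

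**Figure D3:**
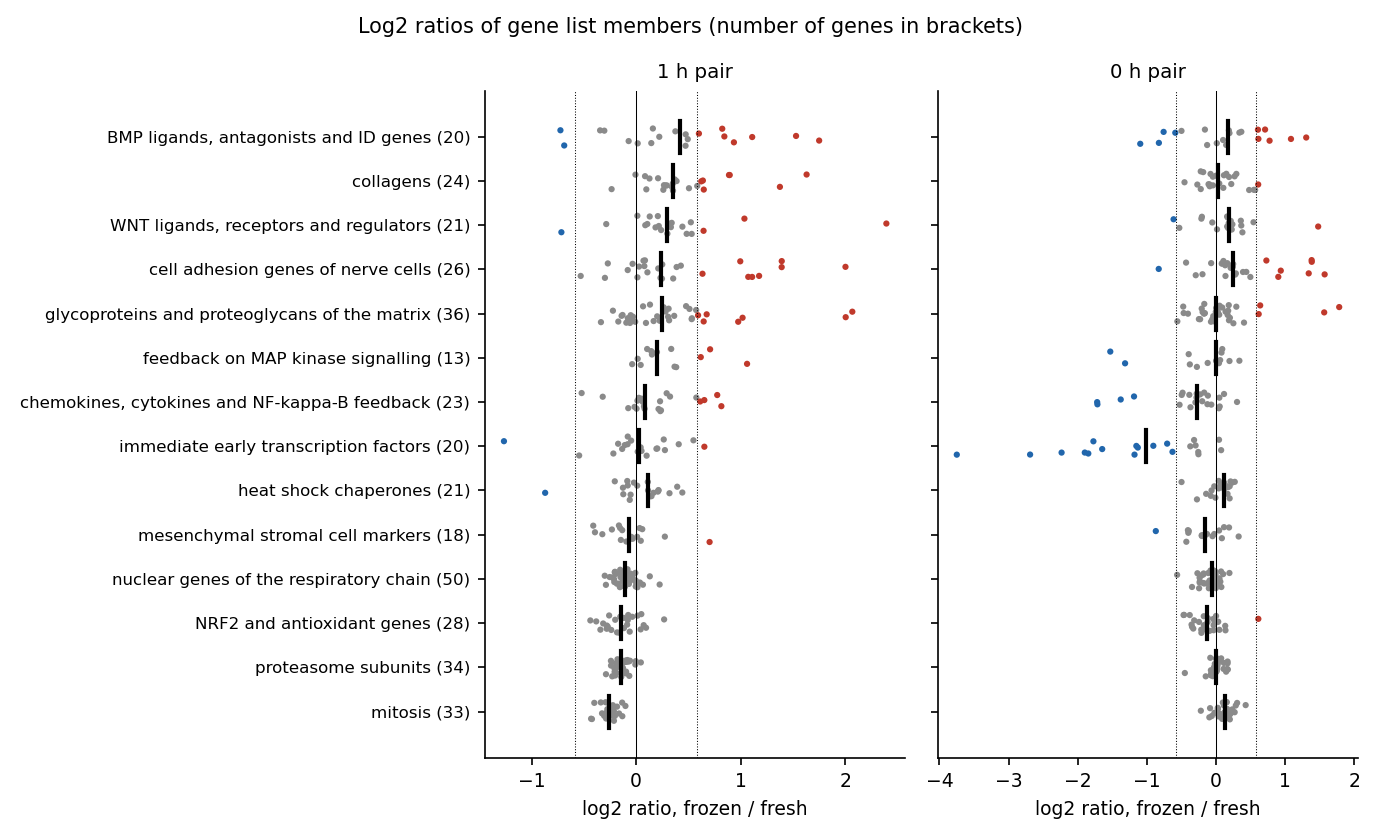
Each point is the log2 ratio of 1 gene of the named list in the 1 h pair (left) and the 0 h pair (right), coloured where it is at least 1.5-fold higher (red) or lower (blue), with a bar at the median. Immediate early transcription factors centre near 0 at 1 h (median 0.03) and at -1.02 at 0 h, and all 33 mitosis genes lie below 0 at 1 h.

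Immediate early transcription factors, which cells make within minutes of a stimulus, lay on both sides of 0 in the 1 h pair, with a median log2 ratio of 0.03 (-0.03 with libraries scaled by count sums alone). Of 20 members, 11 were above 0 and 9 below, from -1.26 to 0.65, and the counting interval lay above 0 for 6 and below 0 for 4. Over all genes the interval lay above 0 for 18.8% and below 0 for 16.0%. KLF2 was at least 1.5-fold higher and EGR3 at least 1.5-fold lower. In the 0 h pair 13 of the same 20 genes were at least 1.5-fold lower in the frozen library and none higher, with a median of -1.02. FOS stood at 72.6 CPM in fresh and 77.8 in frozen 1 h DMSO (0.10, 0.00 to 0.20), but at 532 in fresh 0 h, 734 with medium alone and 156 in frozen 0 h DMSO. Both fresh libraries without DMSO in their titles thus lay above the 3 libraries with DMSO, of which frozen 0 h DMSO was the highest. FOS stood at 428 CPM in SGC, 247 in SGI and 122 in SMC, the osmolyte-frozen libraries, so that SMC lay below frozen 0 h DMSO.

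Other members were also higher in fresh cells without DMSO than in the 1 h pair. FOSB stood at 62.0 and 75.1 CPM in the 1 h pair (0.28), and at 425 in fresh 0 h and 908 with medium alone. EGR1 stood at 144 and 131 CPM (-0.13, -0.21 to -0.06), against 624, 1301 and 275 in fresh 0 h, fresh 1 h medium and frozen 0 h DMSO. JUNB stood at 56.3 and 53.2 CPM (-0.08), against 136, 211 and 43.4. NR4A1, a nuclear receptor, had the widest gap between pairs of the 20: 7.82 and 5.34 CPM at 1 h (-0.54, -0.90 to -0.20), and 67.5 and 4.98 at 0 h (-3.75). For NR4A1 the 3 libraries with DMSO lay between 4.98 and 7.82 CPM. Exposure to DMSO and freezing were not crossed with replicates, and the share of either in these levels was not tested.

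EGR3 stood at 5.90 CPM in fresh and 2.43 in frozen 1 h DMSO (-1.26, -1.76 to -0.81), while KLF2 stood at 6.81 and 10.7 (0.65, 0.36 to 0.96) and JUND at 46.3 and 67.8 (0.55). DUSP6, a phosphatase that switches off ERK, stood at 3.70 and 7.77 CPM (1.06, 0.68 to 1.47), and at 20.9 and 8.37 in the 0 h pair. DUSP6 in fresh 1 h DMSO was the lowest of all 8 libraries. Of 13 feedback genes of MAP kinase signalling, 3 were at least 1.5-fold higher (DUSP6, SPRED3 and DUSP8) and none lower, with a median of 0.20. Above 0 were 12 of the 13, against 52.0% of all genes. In the 0 h pair 7 of the 13 were above 0 and 6 below, with a median of 0.0007. There 2 were at least 1.5-fold lower and none higher. Fresh 1 h DMSO was the lowest of the 5 fresh and DMSO-frozen libraries in 8 of the 13, against 15.5% of all genes. DUSP1, itself an immediate early gene, stood at 57.6 and 59.4 CPM (0.04, -0.07 to 0.16), against 202 in fresh 0 h and 383 in fresh 1 h medium.

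The 250 bases before the starts of EGR1 and DUSP1, from RefSeq, are shown because their levels were alike in the 1 h pair and far apart in the 0 h pair. The windows are GRCh38.p14 chr5:138465229-138465478, plus strand, and chr5:172771196-172771445, minus strand. Capitals mark CArG boxes, the sites of serum response factor, 2 in EGR1, and the CRE, 1 in DUSP1. Both strands were searched and no matches overlap.
EGR1: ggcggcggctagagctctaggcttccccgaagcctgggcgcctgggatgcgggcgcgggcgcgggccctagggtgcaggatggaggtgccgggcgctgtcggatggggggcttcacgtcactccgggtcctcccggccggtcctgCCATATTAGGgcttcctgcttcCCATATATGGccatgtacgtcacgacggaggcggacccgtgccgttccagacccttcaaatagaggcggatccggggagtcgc
DUSP1: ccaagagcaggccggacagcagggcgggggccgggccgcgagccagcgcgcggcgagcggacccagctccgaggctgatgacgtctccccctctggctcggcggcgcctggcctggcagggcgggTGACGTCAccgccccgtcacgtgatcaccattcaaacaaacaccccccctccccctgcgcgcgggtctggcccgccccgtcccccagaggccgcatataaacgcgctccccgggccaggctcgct
A CArG box was found in 312 of 27305 windows of this length (1.14%) and a CRE in 1.77%, as above. The matches describe the letters of these windows only.

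**Figure D4:**
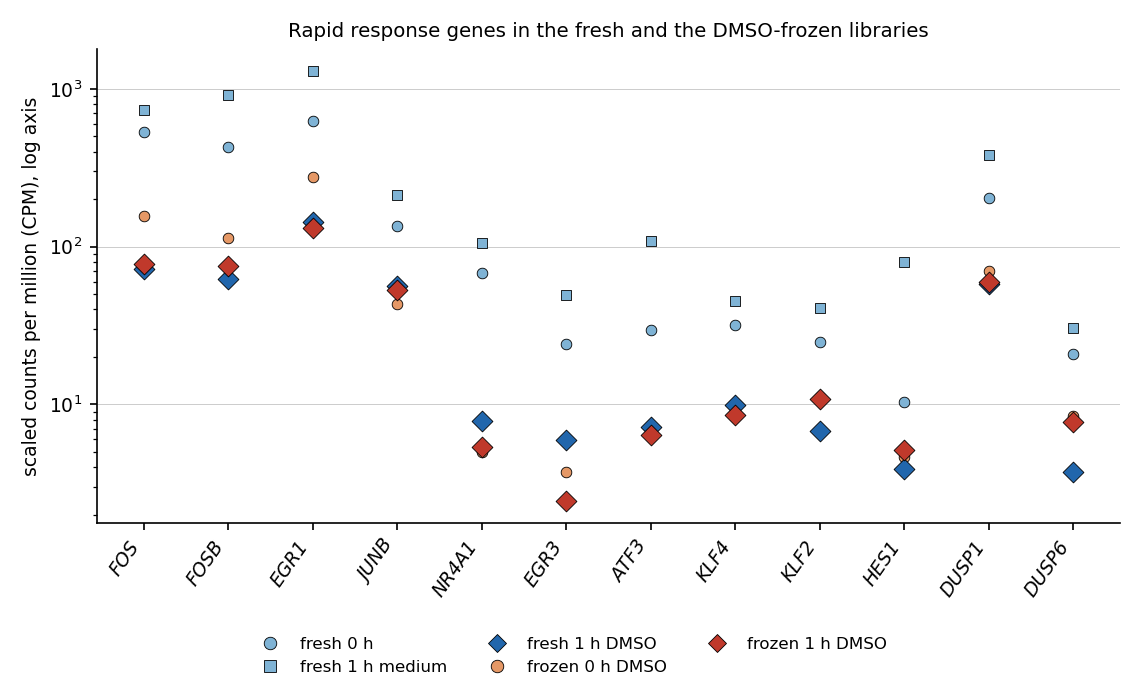
Points give the scaled CPM (log axis) of rapid response genes in the 3 fresh and 2 DMSO-frozen libraries. The diamonds of the 1 h pair lie close together for most genes, as for DUSP1 at 57.6 and 59.4 CPM, with fresh 0 h (circle) and fresh 1 h medium (square) above them.

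Inflammatory genes lay slightly higher in the frozen library of the 1 h pair. Of 23 chemokines, cytokines and genes of NF-kappa-B feedback, 4 were at least 1.5-fold higher and none lower, and 19 were above 0, with a median of 0.08. The 4 were the chemokines CXCL6 (6.58 and 11.6 CPM, 0.82), CXCL1 (6.35 and 10.9 CPM, 0.78) and CXCL5, and the cytokine IL1B. CXCL1 and its relatives are close paralogs, and the rule for reads that fit several genes is unknown here. In the 0 h pair 18 of the 23 genes were below 0, with a median of -0.28 and 4 at least 1.5-fold lower. Fresh 1 h DMSO was the lowest of the 5 fresh and DMSO-frozen libraries in 13 of the 23, as it was in 1845 of all genes (15.5%).

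Genes of mitosis were lower in the frozen library in small and even steps. All 33 members lay below 0 at 1 h, against 48.0% of all genes. They lay between -0.43 and -0.10, with a median of -0.26, and none was at least 1.5-fold lower. KIF20A, a mitotic kinesin, stood at 66.1 CPM in fresh and 49.0 in frozen 1 h DMSO (-0.43, -0.54 to -0.32), and at 52.2 and 57.9 in the 0 h pair. BIRC5 (survivin) stood at 56.1 and 41.9 CPM (-0.42), CCNB2, a B-type cyclin, at 31.9 and 24.2 (-0.40) and the proliferation marker MKI67 at 201 and 166 (-0.27). The counting interval lay below 0 in 29 of the 33 genes, against 16.0% of all genes.

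The 0 h pair gave the opposite sign for most of these genes, with 28 of 33 above 0 and a median of 0.13. Relative to each gene's mean over the 8 libraries, the mean of the 33 log2 levels was 0.27 in fresh 1 h DMSO, 0.18 with medium alone, 0.15 in frozen 0 h DMSO, 0.03 in fresh 0 h and 0.01 in frozen 1 h DMSO. Fresh 1 h DMSO was the highest of these 5 in 18 genes, and in 1688 of all genes (14.1%). In bulk RNA, fewer dividing cells and less of these RNAs per cell cannot be told apart. The list has a low GC content, with a median of 43.2%. Centred on genes of like GC content, its medians were -0.22 at 1 h and 0.07 at 0 h. Genes of DNA replication had a median of -0.07 over 35 members, with CDC45 at least 1.5-fold lower (9.55 and 6.32 CPM, -0.59).

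The GC content itself went with the log2 ratios, in opposite directions in the 2 pairs. From the fifth of genes with the lowest GC to that with the highest, the median ran from -0.04 to 0.09 at 1 h and from 0.09 to -0.15 at 0 h. Pearson's r with GC was 0.21 at 1 h and -0.39 at 0 h over 11606 genes with a GENCODE transcript, a description across genes of the same 4 libraries. With each gene centred on genes of like GC, r between the pairs was 0.44, and 219 genes were at least 1.5-fold higher and 102 lower at 1 h. Of the called genes, the higher ones had a median GC of 52.0% and the lower ones of 51.3%.

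**Figure D5:**
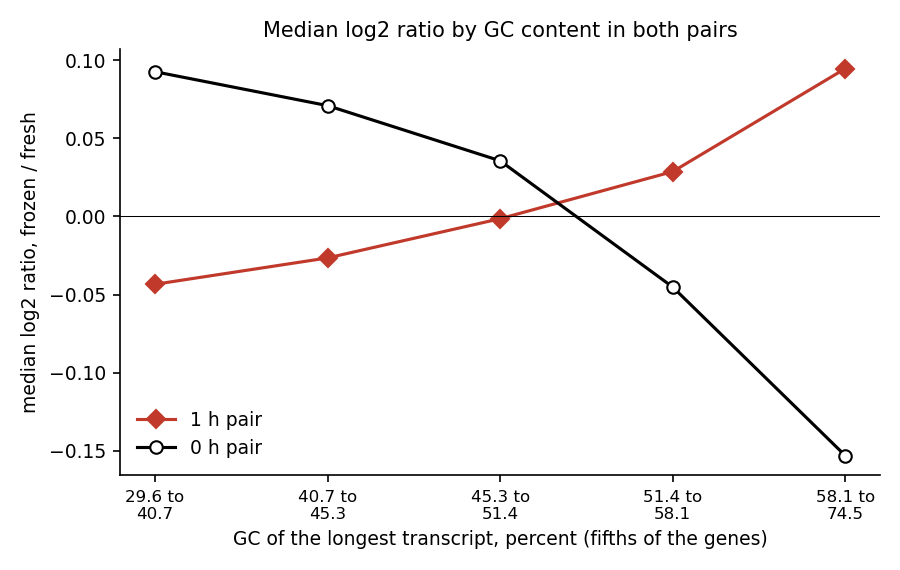
Median log2 ratio of frozen to fresh (vertical axis) for 5 equal groups of 11606 genes by the GC content of their longest transcript (horizontal axis), in the 1 h pair (red diamonds) and the 0 h pair (open circles). The 1 h medians go up from -0.04 to 0.09 and the 0 h medians down from 0.09 to -0.15.

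Other housekeeping and metabolic lists were lower by small amounts, beside 48.0% of all genes below 0 at 1 h. Of 34 proteasome subunits, 33 lay below 0, with a median of -0.14 at 1 h and 0.01 at 0 h, and the lowest was PSMB9 at -0.29 (counting interval -0.65 to 0.07). Of 50 nuclear genes of the respiratory chain, 43 lay below 0, with medians of -0.10 and -0.05, and NDUFV2 was the lowest at 67.3 and 54.7 CPM (-0.30). Cytosolic ribosomal proteins had a median of -0.03 over 76 genes. No member of these 3 lists was 1.5-fold apart. NRF2 and antioxidant genes had 22 of 28 members below 0 and a median of -0.14 in both pairs. Of these, NQO1, a quinone reductase and standard NRF2 target, stood at 264 and 195 CPM (-0.44, -0.49 to -0.38), and at 252 and 203 in the 0 h pair. TKT, of the pentose phosphate pathway, stood at 486 and 384 CPM (-0.34) at 1 h and had a log2 ratio of -0.35 at 0 h. In 15 of the 28 genes both DMSO-frozen libraries lay below all 3 fresh ones, against 14.9% of all genes. In none did both lie above, against 18.7% of all genes.

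Stress programmes had few members apart. Of 21 heat shock chaperones, the small heat shock protein CRYAB was at least 1.5-fold lower (8.59 and 4.68 CPM, -0.87) and none was higher, and HSPA1A, which has a near-identical copy, stood at 6.58 and 8.66 CPM (0.39). Endoplasmic reticulum stress genes had none of 21 apart and a median of 0.05 (-0.01 with libraries scaled by count sums alone). Among 27 genes of the ATF4 amino acid response, the lipoprotein receptor VLDLR was higher (2.10 and 4.99 CPM, 1.23), with a list median of 0.07. Among 20 p53 targets, the secreted factor GDF15 was higher (6.03 and 10.9 CPM, 0.84). Among 25 apoptosis regulators, BCL2, which blocks apoptosis, was higher (1.51 and 3.00 CPM, 0.97, 0.37 to 1.64). With 20 to 27 genes a list, a count of 0 or 1 is near the 2.88% of all genes that were apart.

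Genes linked to cold, water balance and the cell membrane gave similar counts. Of 21 genes of cold response and RNA binding none was apart, and the cold-inducible RBM3 stood at 318 CPM in fresh and 270 in frozen 1 h DMSO (-0.24, -0.29 to -0.19). Of 23 genes of osmotic stress and volume regulation, SLC6A6 was lower, and the list had a median of 0.08. Of 28 membrane repair genes, ANXA10 was lower, and SDPR, which shapes caveolae, was higher (6.81 and 10.5 CPM, 0.62), with 21 members below 0 and a median of -0.08. S100A10, the partner of annexin A2, stood at 214 and 158 CPM (-0.44).

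Markers of other cell types were summed in both libraries. Of 13 blood and immune markers, 5 were at 0 in both libraries and 1, LYZ, passed the count limit (1.78 CPM in fresh and 2.78 in frozen 1 h DMSO), and the 13 summed to 4.20 and 4.86 CPM. Of 15 pluripotency markers 3 passed, with sums of 18.8 in fresh and 20.01 in frozen 1 h DMSO. Endothelial markers summed to 53.7 and 66.7 CPM, with ERG at 4.89 and 10.8 (1.13, 0.81 to 1.48). Epithelial markers summed to 1382 and 1263 CPM, mostly KRT8 and KRT18, with KRT19 the only one apart. Bone, cartilage, fat and muscle markers summed to 47.7, 51.8, 10.8 and 22.5 CPM in fresh and 41.7, 57.8, 7.91 and 15.2 in frozen 1 h DMSO. The part of other cells in the called genes was not tested.

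The called genes were mostly weakly expressed. In the fifth of genes with the lowest mean level, below 9.14 CPM, 5.65% were higher and 3.52% lower, and in the fifth with the highest level 1.13% and 0.126%. Coding length, as the table gives it, had little relation to the calls, with 1.72% to 2.26% of genes higher over 5 equal groups by length. The median length was 3224 bases for higher, 3228 for lower and 3223 for all genes. Over 23 chromosomes with at least 50 genes the median log2 ratio lay between -0.03 and 0.07.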

How the data were processed

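Per the labels' protocols, RNA came from a miRNeasy kit and was made into Illumina libraries. Reads were handled with CASAVA 1.9, TopHat (listed as 12.0.6) and HTSeq on hg19, per the submitters' processing notes. The annotation is not given in the sources used here, nor is the strand setting, so overlapping antisense genes cannot be told apart. The authors deposited 1 count and 1 RPKM value per gene and library, per the file headers. Every count is even, so intervals treat 2 counts as 1 unit. Among 23398 entries, 49 identifiers were listed more than once, and 8 identifiers whose entries had differing counts kept them as separate entries. RPKM values were used for markers and as an alternative.

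CPM used TMM factors from edgeR 4.0.16 over all 8 libraries (R 4.3.3), whose count sums ran from 41198716 to 51166666. Log2 ratios used a prior count of 2 and intervals were exact binomial ones at 95%. Both were run on simulated counts that follow the counting model of the intervals, which checks the calculation only. No gene was tested, as each condition has 1 library. Alternatives were other scalings (count sums, DESeq2 1.42.0 size factors, TMM over the 2 libraries), a prior count of 0.5, other count limits and RPKM with a pseudocount of 0.05. Centring on GC content in 20 bins was chosen after seeing the data.

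The members and the 51 gene lists (41 programmes, 10 marker lists) were chosen with earlier results of these data known. Genes were named by rule: the 15 largest ratios each way at 5 CPM or more, 5 each way at 100 CPM or more, the 2 to 4 largest of each list described, and the 5 with the largest difference between pairs each way among called genes. FOS, FOSB, EGR1, JUNB, DUSP1, ID1 to ID4, COL1A1, COL3A1, MKI67, GDF6, C3 and C1QTNF1 were named after their values were seen, the surface markers as a check of the cells. Some named results are not reported here. Motif shares among called genes are not given, since a RefSeq promoter was matched for 72.8% of the higher and 64.8% of the lower genes.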

Additional observations from a re-analysis of the deposited data

Results flagged for a closer look

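Some genes were at least 1.5-fold apart in both pairs but in opposite directions, 5 in all, each higher in frozen than in fresh 1 h DMSO and lower in frozen 0 h DMSO than in fresh 0 h. DUSP6 had log2 ratios of 1.06 and -1.31, and KLF2, an immediate early factor, of 0.65 and -1.15. The complement component C3 had ratios of 0.62 and -0.72; it stood at 14.3 CPM in fresh 1 h DMSO, 28.96 in fresh 0 h and 17.6 in frozen 0 h DMSO. LYZ (lysozyme) had 0.63 and -0.81, and C1QTNF1, a secreted C1q-like protein, 0.61 and -0.84, both at levels below 4 CPM in all 8 libraries. Fresh 1 h DMSO was the lowest of the 5 fresh and DMSO-frozen libraries for each of these genes but C3, for which fresh 1 h medium was as low, at 14.2.

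In 2 gene lists at least 75% of members had one sign at 1 h and at least 75% the other at 0 h. Chemokines, cytokines and NF-kappa-B feedback had medians of 0.08 and -0.28, and mitosis genes of -0.26 and 0.13. Centred on genes of like GC content, 17 of the 23 chemokine and cytokine genes were above 0 at 1 h, which is under 75%, and with libraries scaled by count sums alone their median was 0.02. All 33 mitosis genes stayed below 0 at 1 h after GC centring. The difference between the pairs was not tested for any of these genes or lists.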

How the results depend on the processing

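No paired analysis was possible because each condition had 1 library and no value comes from a test. Leaving out a library would leave no library on one side of the pair, and a contrast pooled over conditions was not run. The counts at 1.5-fold and 2-fold stayed within 1.5 times of the reported ones under DESeq2 size factors, TMM over the 2 libraries, a prior count of 0.5, RPKM, count sums and GC centring. They depended on the count limit. From a count of 50, 360 genes were higher and 202 lower at 1.5-fold, 82 and 45 at 2-fold, and 19 went opposite ways in the 2 pairs. From 200, 49 were lower at 1.5-fold, 31 higher and 9 lower at 2-fold, and 3 opposite. With no limit the counts were 1834 and 1819 at 1.5-fold, 620 and 1188 at 2-fold, with 909 apart the same way in both pairs and 685 opposite, against 98 and 5 as reported. Scaling by count sums left 2 opposite. The median of the YAP and SRF targets was 0.05 as reported and -0.0153 by count sums. Over the 217 named genes, 1876 alternative values stayed within the counting interval and 42 did not, and no named gene past 1.5-fold changed sign. Counting error limits the weakest genes, such as CXCL5 with an interval from -0.00 to 1.36.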

Other observations

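Growth factors and integrins were not described above. Of 28 growth factors and binding proteins secreted by stromal cells, 3 were at least 1.5-fold higher in frozen 1 h DMSO and 1 lower, with a median of 0.14. The higher ones were APLN (2.65 and 6.23 CPM, 1.22), IGFBP5 and IGF2 (2.01 and 3.36 CPM, 0.73, counting interval 0.19 to 1.31), and the lower one TNFRSF11B. Among 23 integrin and laminin subunits, LAMB3 (17.9 and 10.1 CPM, -0.83) was lower, and the collagen-binding integrin subunits ITGA1 (1.14 and 2.25 CPM, 0.95) and ITGA11 (590 and 961 CPM, 0.70) were higher. These 3 genes had the same sign in the 0 h pair.

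HAS2, which makes hyaluronan, stood at 24.6 and 15.7 CPM (-0.64, -0.84 to -0.45) and at 31.2 and 14.6 in the 0 h pair. It was the lowest of 11 genes of hyaluronan synthesis, binding and breakdown, 7 of which lay above 0, with a median of 0.13. The EGF receptor ligand EREG stood at 24.3 and 14.7 CPM (-0.73) and had a log2 ratio of -0.87 at 0 h. It was the lowest of the 6 listed EGF receptor ligands and receptors, 3 of which lay above 0, with a median of 0.06. Of 30 genes of cholesterol and fatty acid synthesis, 20 lay above 0, with a median of 0.16 at 1 h and 0.07 at 0 h. The desaturase SCD stood at 332 and 448 CPM (0.43). Centred on genes of like GC content, the median of this list was 0.07 at 1 h and 0.08 at 0 h.

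Genes that were lower at 1 h and furthest from their 0 h value were SCARNA9 (-0.79 and 0.47), MTMR7 (-0.72 and 0.52), ZNF101 (-0.63 and 0.58), C9orf116 (-0.68 and 0.46) and ZNF214 (-0.99 and 0.13), all below 4 CPM in every library. At 0 h the counting interval spanned 0 for each of these genes but ZNF101 (0.11 to 1.07). At 1 h the interval lay below 0 for each, for C9orf116 from -1.38 to -0.02. On the other side, besides DUSP6, PCSK1N, KLF2 and NTN1, HES4 stood at 1.10 and 2.43 CPM (1.12). Its ratio at 0 h was -0.57, with a counting interval that spanned 0 (-1.37 to 0.17).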
